A study of Homo sapiens with 2 samples.

Results

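The HOX gene clusters of ARPE-19 cells were described by where micrococcal nuclease left protected DNA: 38 HOX genes in 4 clusters, taken by name from the GENCODE 44 annotation. Each cluster ran from its first to its last member with 20 kb added on either side, on hg38: HOXA at chr7:27080354-27220091 with 10 members, HOXB at chr17:48508526-48748750 with 10, HOXC at chr12:53918831-54076030 with 9 and HOXD at chr2:176072721-176210907 with 9. Together they hold 1069 of the 2632955 positions in the deposited list on chromosomes 1-22 and X.

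The study is an MNase-seq experiment, in which micrococcal nuclease cuts linker DNA and the fragments that nucleosomes protect are sequenced. ARPE-19 is an established human line of retinal pigment epithelium. Cells in interphase under normal culture were lysed and digested for 5 min at 37 °C, fragments near 150 bp were recovered by gel, and sequencing libraries came from 2 batches that share cells and condition. The deposited list gives point positions without height, score or batch, so there is no treated arm, no spread between replicates and no known read depth, and an effect of batch cannot be told apart.

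HOX genes encode homeodomain transcription factors that set position along the body axis and the limbs. Their order along a chromosome follows the order of their activity in the embryo, with low paralog numbers anterior and high numbers posterior, and the clusters are dense in CpG islands and are the classic targets of Polycomb silencing and trithorax activation. Neither expression nor histone marks were measured here, so which of these genes were active in the cells is not known from these data.

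Densities are positions per kb of determined sequence. Because the density of the whole list changes with base composition, each was also divided by a GC expectation, the number of positions that the same bases would hold at the genome-wide density of their GC content. This ratio is called observed over expected, and 1 means as many positions as the base composition alone would give. Intervals are 95% and cover counting error only. They are too narrow, since the variance of counts in 10-kb tiles across the genome was 4.80 times what counting alone would give. For the 65 pieces of 10 kb in the clusters it was 1.82 times.

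All 4 clusters held more positions per kb than the sequence beside them. HOXA held 231 positions, or 1.65 per kb (1.45 to 1.88). HOXB held 335, or 1.39 per kb (1.25 to 1.55). HOXC held 271, or 1.72 per kb (1.52 to 1.94). HOXD held 232, or 1.68 per kb (1.47 to 1.91). The genome as a whole held 0.904 per kb, and each of the clusters was denser than at least 86.2% of 100-kb tiles of the genome. Against the 200 kb on either side, the ratio of densities was 1.36 for HOXA (1.16 to 1.60, exact adjusted p = 0.00019), 1.49 for HOXB (1.28 to 1.73, adjusted p = 2.99e-07), 1.20 for HOXC (1.03 to 1.39, adjusted p = 0.0161) and 2.20 for HOXD (1.85 to 2.62, adjusted p = 6.86e-18). These are two-sided exact binomial tests of how the positions split between cluster and flanks, with Benjamini-Hochberg adjustment over the 4 clusters. The flanks themselves differed, from 0.762 positions per kb beside HOXD to 1.44 beside HOXC. They also differed by side. Beside HOXA the flank at lower coordinates held 0.920 per kb and the one at higher coordinates 1.505. Beside HOXC these were 1.305 and 1.575, beside HOXB 0.945 and 0.925, and beside HOXD 0.815 and 0.710.

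Much of this excess was gone on the GC expectation. The clusters are between 49.0% and 50.8% GC, and the observed over expected ratio was 1.28 for HOXA (1.12 to 1.46), 0.998 for HOXB (0.894 to 1.11), 1.19 for HOXC (1.06 to 1.34) and 1.35 for HOXD (1.18 to 1.54). By this ratio HOXA was above 77.7% of 100-kb tiles of the genome, HOXB above 47.9%, HOXC above 69.4% and HOXD above 83.1%. With the GC expectation in place of bases, the ratio to the flanks was 1.01 for HOXA (0.856 to 1.18, exact adjusted p = 0.968), 1.09 for HOXC (0.943 to 1.27, adjusted p = 0.307) and 1.20 for HOXD (1.01 to 1.43, adjusted p = 0.0832). HOXB stayed at 1.25 (1.08 to 1.45, exact adjusted p = 0.0119), beside a flank on the HOXB13 side at 0.666 of its own expectation. The flank of HOXA at higher coordinates was at 1.39 of expectation, above the 1.28 of the cluster. When the spread between 10-kb pieces took the place of counting error, the HOXB value lost its call as well, and so did the HOXC ratio on bases.

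None of the 6 pairs of clusters differed in positions per kb at an adjusted p under 0.05, and the lowest was HOXB against HOXC at 0.809 (0.687 to 0.953, exact binomial test, adjusted p = 0.0599). On the GC expectation HOXB was lower than HOXD at 0.737 (0.622 to 0.875, exact adjusted p = 0.00266) and HOXA was higher than HOXB at 1.28 (1.08 to 1.52, adjusted p = 0.0124). Both calls were lost with the spread between 10-kb pieces. The whole chromosomes stood in the same order by observed over expected. Chromosome 17 of HOXB was at 0.804, chromosome 12 of HOXC at 0.893, chromosome 7 of HOXA at 1.10 and chromosome 2 of HOXD at 1.21. The part of the chromosome level in the differences between clusters was not tested. HOXB also holds the long stretch between HOXB9 and HOXB13, which has no member and few islands.

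**Figure D1:**
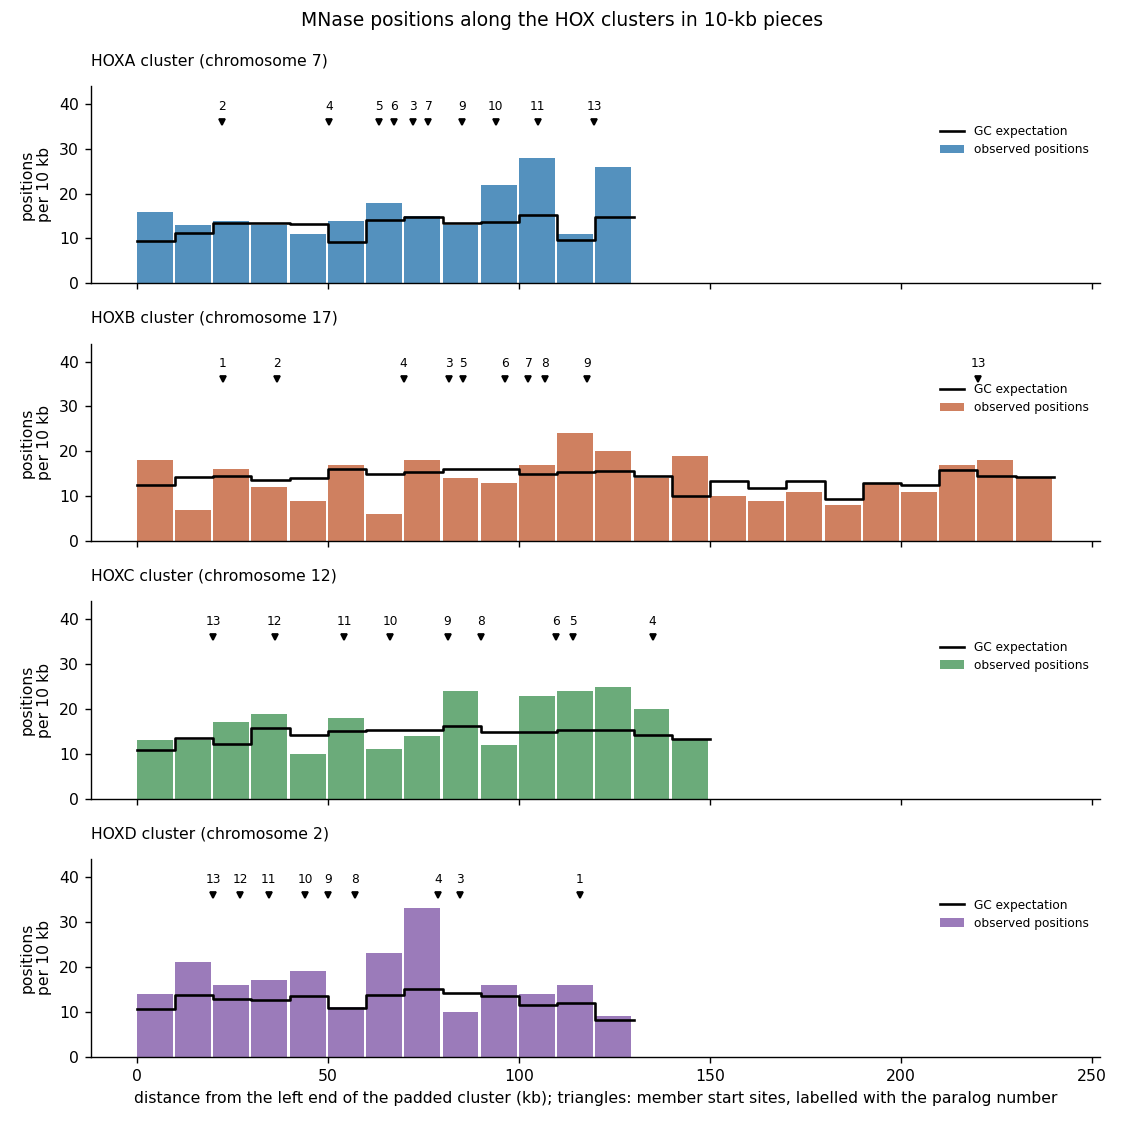
Number of deposited positions (bars) and GC expectation (black line) in consecutive 10-kb pieces of each cluster, by distance in kb from the left end of the padded cluster, with triangles at the start sites labelled by paralog number; the last piece of under 10 kb is not drawn. Pieces ranged from 6 positions, at the piece with the HOXB4 start, to 33, at the piece with the HOXD4 start.

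Along the clusters the positions were uneven on the scale of a gene, as the plot of 10-kb pieces shows. HOXD ranged from 9 to 33 positions per piece, and its highest piece, which ends just past the HOXD4 start and contains the miR-10b gene, held 33 positions where 15.0 were expected. The highest piece of HOXA, around the HOXA11 start, held 28 where 15.2 were expected. The lowest of all 65 pieces lay around the HOXB4 start in HOXB, with 6 positions where 15.0 were expected. In HOXC the pieces ranged from 10 to 25, and the 4 neighbouring pieces from the HOXC6 start to the HOXC4 start each held 20 or more. These pieces were named after their values were seen, and the extremes of many pieces are far apart by selection.

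CpG islands were the sparsest sequence in the clusters and, over the 4 clusters together, the sequence around them was the densest. The clusters hold 69 islands, between 7.59% of the bases in HOXB and 18.96% in HOXA. Island interiors, more than 200 bp inside an edge, held 24 positions in 52.0 kb, or 0.461 per kb (0.296 to 0.686). Island borders, within 200 bp of an edge, held 46 positions, or 0.833 per kb (0.610 to 1.11). Shores, out to 2000 bp, held 418 positions, or 1.99 per kb (1.81 to 2.19). Shelves, out to 4000 bp, held 236 positions, or 1.82 per kb (1.60 to 2.07). The open sea beyond held 345 positions, or 1.51 per kb (1.35 to 1.68).

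Against the open sea of the clusters, interiors were at 0.306 (0.193 to 0.463, exact adjusted p = 1.72e-10) and borders at 0.553 (0.397 to 0.753, adjusted p = 0.000137). Shores were at 1.32 (1.14 to 1.53, adjusted p = 0.000185) and shelves at 1.21 (1.02 to 1.43, adjusted p = 0.0275), all in exact binomial tests adjusted over the 4 classes. On the GC expectation the ratios were 0.354, 0.514, 1.24 and 1.19, and all 4 stayed called. The shore excess over open sea rested on HOXB, without which it was 1.16 (exact adjusted p = 0.143), and the shelf excess was lost without HOXB (1.14, adjusted p = 0.221) or without HOXC (1.13, adjusted p = 0.236).

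Shores were where the clusters departed most from the rest of the genome. Across the genome shores held 0.974 positions per kb and were at 0.762 of their GC expectation, whereas in the clusters they were at 1.41 (1.28 to 1.55), a ratio of 1.86 (1.68 to 2.04, adjusted p = 1.02e-29 over 5 classes in an exact binomial test). Shelves in the clusters were at 1.35 of expectation against 0.890 for the genome, a ratio of 1.51 (1.33 to 1.72, exact adjusted p = 5.24e-09). Open sea, at 1.13 against 1.02, did not pass the same exact test (adjusted p = 0.0723), and neither did borders (0.583 against 0.494, adjusted p = 0.325) nor interiors (0.402 against 0.483, adjusted p = 0.454). The high shores were present in each of the clusters, with observed over expected ratios of 1.49 in HOXA, 1.26 in HOXB, 1.25 in HOXC (0.982 to 1.56) and 1.61 in HOXD. In HOXD the open sea was as high, at 2.12 positions per kb and 1.87 of expectation (1.40 to 2.44), beside 2.11 per kb in its shores. Open sea stood at 1.34 of expectation in HOXA, 0.963 in HOXB and 1.14 in HOXC. The 200-kb flanks, which hold 93 shore positions, were at 1.18 of expectation in their shores (0.95 to 1.44), and the clusters did not differ from them there at an adjusted p under 0.05 (ratio 1.20, 0.954 to 1.52, exact adjusted p = 0.321).

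**Figure D2:**
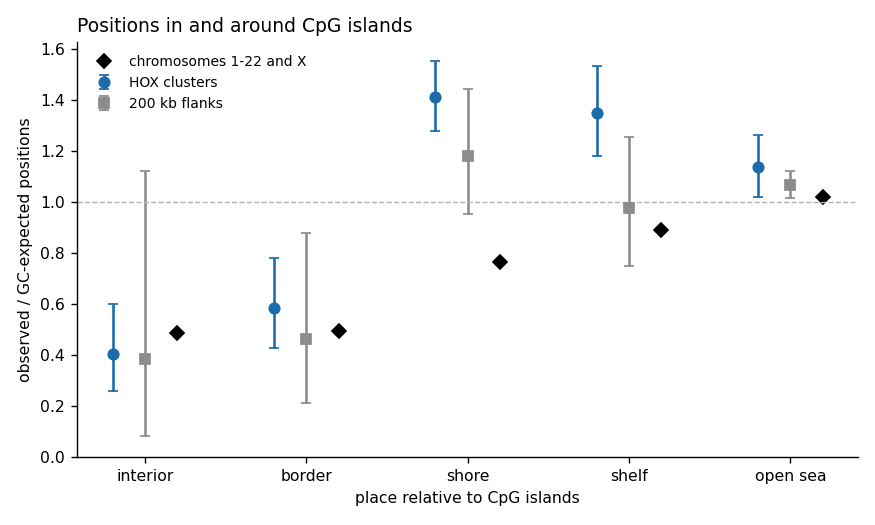
Observed over GC-expected positions by place relative to CpG islands, for the 4 HOX clusters (circles), their 200-kb flanks (squares) and chromosomes 1-22 and X (diamonds), with 95% Poisson intervals for the first and second of these. Interiors and borders are low in all 3, while shores stand at 1.41 in the clusters and 0.762 in the genome.

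Of the 69 islands, 47 held no position (68.1%), close to 64.6% of the 17123 islands of the genome. The longest, 4570 bp over the HOXB7 start at chr17:48610166-48614735, held 4 positions where 6.29 were expected. An island of 4359 bp beyond HOXD13, at chr2:176079360-176083718, held 1 where 5.57 were expected. Islands over the starts of HOXD8 (2078 bp), HOXB9 (1886 bp), HOXD9 (1867 bp) and HOXA13 (1621 bp) held none, but the expectation for each was below 2.00, so an empty island of this size is within counting error.

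The starts themselves were mostly empty, as for genes in general. A start is the first base of the MANE Select transcript, the agreed reference transcript of a gene. In the window from -200 to +50 bp of the start, 29 of 38 members had no position (76.3%, Wilson interval 60.8 to 87.0), against 85.8% of all protein-coding genes. Of the 23 members whose start lies in an island, 20 were empty, against 91.7% of all such genes. Of the 15 with a start outside islands, 9 were empty, against 78.4% of all such genes. The share of empty starts among the members was therefore near or below the background.

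The 9 members with a position in that window each had 1. Among the anterior genes, HOXA2, which patterns the branchial arches, had it at -93 bp, HOXB1, a hindbrain gene, at -115 bp, and HOXB3 at -98 bp. Among the central genes, HOXA5, which acts in lung and neck development, had it at -32 bp, HOXD4 at -41 bp and HOXC4 at -165 bp. Among the posterior genes, HOXA10, a gene of uterine development, had it at -59 bp, HOXC12 at -122 bp and HOXC13, a hair follicle gene, at -177 bp. All 9 lay upstream of the start. HOXA5, HOXA10 and HOXB1 start in an island and the other 6 do not.

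The 200 bases before the start are shown for the pair of members with the position closest to it and for a pair with an empty neighbourhood, because the pairs differ in base composition. Capitals mark the 11 bases centred on the deposited position, the strand is that of the gene, and the sequences are hg38: HOXA5 at chr7:27143682-27143881 and HOXA4 at chr7:27130758-27130957 on the minus strand, HOXD4 at chr2:176151350-176151549 and HOXD8 at chr2:176129505-176129704 on the plus strand.
HOXA5: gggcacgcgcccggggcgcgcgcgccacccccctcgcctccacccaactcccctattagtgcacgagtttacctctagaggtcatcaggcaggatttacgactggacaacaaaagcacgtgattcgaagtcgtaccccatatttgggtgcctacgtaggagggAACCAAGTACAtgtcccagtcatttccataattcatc
HOXD4: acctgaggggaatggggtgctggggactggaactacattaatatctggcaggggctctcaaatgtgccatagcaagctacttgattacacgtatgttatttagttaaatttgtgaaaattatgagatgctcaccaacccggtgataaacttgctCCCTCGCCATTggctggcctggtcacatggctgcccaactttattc
HOXA4: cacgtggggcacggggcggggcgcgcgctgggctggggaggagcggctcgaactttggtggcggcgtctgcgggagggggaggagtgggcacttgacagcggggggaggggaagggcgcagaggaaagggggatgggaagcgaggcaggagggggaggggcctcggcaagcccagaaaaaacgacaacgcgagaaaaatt
HOXD8: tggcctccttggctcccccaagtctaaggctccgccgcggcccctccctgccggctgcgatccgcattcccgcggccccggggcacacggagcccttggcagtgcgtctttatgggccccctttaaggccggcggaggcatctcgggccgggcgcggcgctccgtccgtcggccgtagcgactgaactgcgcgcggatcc
The stretches before HOXA5 and HOXD4 are 56.0% and 46.5% GC with 14 and 3 CpGs, and those before HOXA4 and HOXD8 are 69.0% and 73.0% GC with 18 and 26 CpGs. Other members went the other way: the stretch before HOXA10, with a position, is 62.5% GC and that before HOXB6, without, is 43.5%. Stretches without a position ranged from 41% GC (HOXC6) to 75.5% (HOXD1), and those with 1 from 41% (HOXA2) to 65.5% (HOXC13). Whether composition sorts the starts was not tested.

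Distances from the start to the nearest position had a median of 498 bp (quartiles 173 and 770) against 438 bp (154 and 1080) for all genes. In 6 of 38 members the nearest position was over 1 kb away (15.8%, against 27.2% of all genes). These were HOXA4 at 1152 bp, HOXB8 at 1060 bp, HOXC9 at 1206 bp, HOXD8 at 2013 bp and HOXD9 at 1508 bp downstream, and HOXD1 at -1249 bp, upstream. All of these but HOXB8 start in an island.

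A position 100 to 200 bp downstream of the start, where the list as a whole peaks, was found at few HOX genes. Over all 38 members this was within counting error of the background. It was present at 3 of 38 members (7.89%, Wilson interval 2.72 to 20.8), namely HOXB2 (136 bp), HOXC4 (198 bp) and HOXC6 (171 bp), against 16.1% of all genes. None of the 23 members with an island start had it, against 14.3% of all island starts. A count of 0 of 23 allows a share of up to 13% by the limit of 3 counts and 14.31% by the Wilson interval. The background, 14.33%, lies just above both limits. The difference was not tested, and little can be read from 23 members. All 3 members with the position start outside islands, where they make up 20% of 15 members, against 18.4% of all such genes. Within 500 bp downstream of the start the members together held 10 positions, at 0.467 of expectation (0.224 to 0.860). There all genes were at 0.847 and island genes at 0.762, both inside that interval. From 500 to 1000 bp downstream the members were at 0.673 (0.392 to 1.08), against 0.585 for all genes.

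Elsewhere around the start the members were not lower than all genes. Within 500 bp upstream they were at 0.852 of expectation (0.540 to 1.28), against 0.768 for all genes. From 500 to 1000 bp upstream they were at 1.17 (0.821 to 1.62), against 0.664. From 1000 to 2000 bp upstream the members held 86 positions, at 1.53 of expectation (1.23 to 1.89), against 0.752 for all genes and 0.678 for island genes. From 1000 to 2000 bp downstream they held 71, at 1.21 (0.941 to 1.52), against 0.672 and 0.55. The stretches from 1000 to 2000 bp overlap the shores described above and are not a separate observation.

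**Figure D3:**
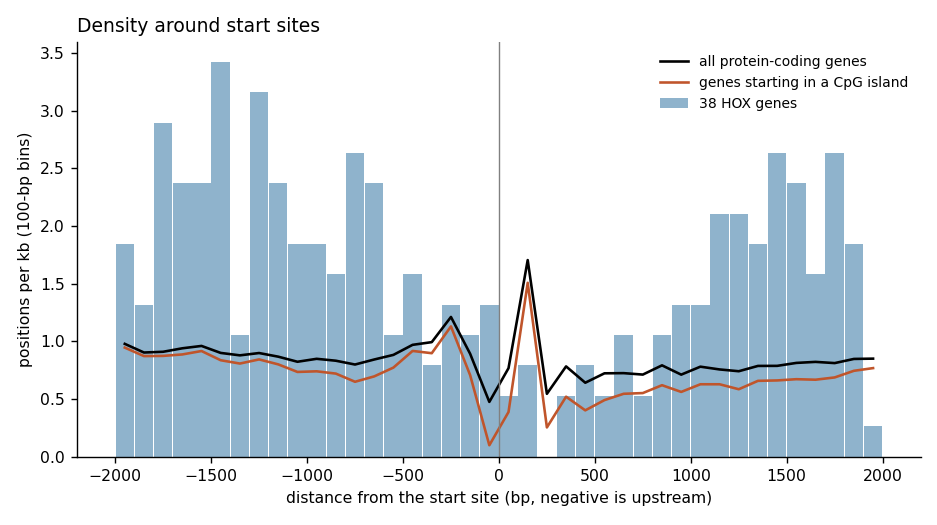
Positions per kb in 100-bp bins from 2000 bp upstream to 2000 bp downstream of the start, for the 38 HOX genes (bars), all protein-coding genes (black line) and genes starting in an island (orange line). The lines peak in the bin from 100 to 200 bp, at 1.70 and 1.51 per kb, where the HOX genes stand at 0.789, and the HOX bars lie above both lines beyond 1000 bp on either side except in the last bin downstream, at 0.263 per kb.

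Within 2 kb of the start the members held from 0 to 14 positions, with a median of 6 against 3 for all genes. The median observed over expected ratio was 1.07, against 0.605 for all genes, and 23 of 38 members were above 1, as were 25.1% of all genes. With a window of 1 kb the number above 1 fell to 13, against 27.4% of all genes, and with the expectation scaled to the surrounding 1 Mb it was 18, against 28.7%, with a member median of 0.976. In the exact Poisson test across 19970 protein-coding genes, with Benjamini-Hochberg adjustment, no member was called for fewer positions (0% of all genes were) or for more (0.155% of all genes were), and 4 members had an unadjusted p under 0.05, as did 2736 genes in all. Counts were too low to read much into a lack of calls for fewer positions. A gene with no position would need an expectation of 13.6 to be the only call, and less where other genes are called. The highest expectation among the members was 6.73.

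HOXA13, a gene of the distal limb and the urogenital tract, had the most. It held 14 positions where 5.03 were expected (ratio 2.78, exact Poisson p = 0.00148, adjusted p = 0.234), with 9 of them from -1904 to -642 bp and 5 from 1183 to 1787 bp, on either side of its empty island. Among the alternatives run, it was called only where bases replaced the GC expectation, a setting that called 1.81% of all genes. HOXA6 followed in that cluster with 10 positions (6.18 expected). HOXB3 held 10 (6.73 expected) and HOXB9, a gene of thoracic identity, 8 (5.63 expected). HOXC5 held 8 (5.76 expected) and HOXC4 8 (5.90 expected). HOXD11, a gene of the forearm, held 10 (5.30 expected), and HOXD4 10 (6.10 expected), 9 of these upstream of its start. None of these others was past an unadjusted p of 0.05.

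Members with the fewest were at the other end. HOXD8 held none within 2 kb where 4.35 were expected (exact p = 0.0259, adjusted p = 0.303), inside an empty stretch of 4670 bp at chr2:176127048-176131717. HOXB4, a gene known from blood stem cells, held 1 where 5.75 were expected (exact p = 0.043, adjusted p = 0.348), and its whole body of 2.84 kb lay in an empty stretch of 3478 bp at chr17:48575452-48578929, the HOXB4 start being outside any island. HOXC10, which acts in lumbar motor neurons, held 1 where 5.97 were expected (exact p = 0.0356, adjusted p = 0.327) and HOXA4 held 1 where 4.07 were expected. HOXA3, a gene of thymus and parathyroid development, held 5 (5.88 expected), HOXB5 5 (6.33 expected), HOXC12 3 (5.64 expected) and HOXD3 3 (5.99 expected). The windows of HOXB3 and HOXB5 overlap, their starts being 3538 bp apart.

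**Figure D4:**
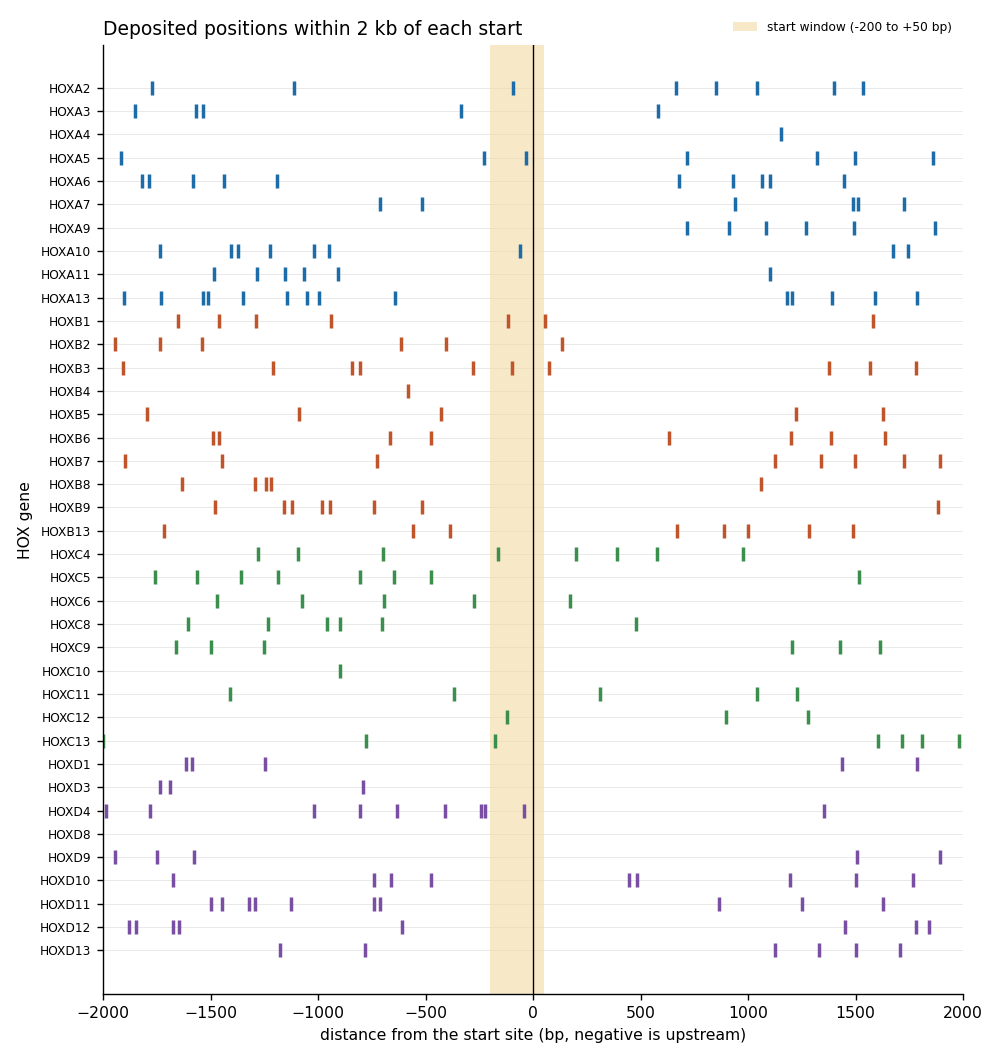
Every deposited position (tick) within 2000 bp of the start of each of the 38 members, coloured by cluster, with upstream to the left and the window from -200 to +50 bp shaded. The 9 ticks in the shaded window all lie left of the start, HOXD8 has no tick, and HOXA13 has 14 with none between -642 and 1183 bp.

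By role, the 7 anterior members had a median observed over expected ratio of 1.06 within 2 kb (0.501 to 1.49), the 15 central members 0.996 (0 to 1.64) and the 16 posterior members 1.25 (0.168 to 2.78). These ranges overlap. Summed over members, posterior genes held 111 positions where 90.2 were expected, central genes 88 where 87.2 were and anterior genes 44 where 42.0 were.

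Members of a paralog group, which descend from the same ancestral gene, differed widely in count in some groups and little in others. In group 4, HOXA4 and HOXB4 had 1 position each within 2 kb, HOXC4 had 8 and HOXD4 had 10. In group 8, HOXB8 held 5, HOXC8 6 and HOXD8 none. In group 13, HOXA13 held 14, HOXB13 8, HOXC13 7 and HOXD13 6. In group 9, HOXA9 held 6, HOXB9 8, HOXC9 6 and HOXD9 5. In group 10, HOXA10 and HOXD10 held 9 each and HOXC10 held 1. These groups are examples, and the expectations of their members ran from 4.07 (HOXA4) to 6.44 (HOXC8). No member was called, and whether paralogs differ beyond counting error was not tested.

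Exons of the members held fewer positions per kb than their introns. The exons held 85 positions in 83.2 kb, or 1.02 per kb, and the introns 207 in 130.01 kb, or 1.59 per kb, a ratio of 0.642 (0.492 to 0.830, exact binomial test, p = 0.000483). On the GC expectation the ratio was 0.759 (0.582 to 0.981, exact p = 0.0319). Across all protein-coding genes the exon to intron ratio was 1.13 on bases and 0.974 on the GC expectation. The HOX ratio was 0.570 of the genome's on bases (0.437 to 0.737, exact p = 7.78e-06), while on the GC expectation it was 0.779 of it (0.598 to 1.01, p = 0.0562). Leaving out first exons gave 0.795 (exact p = 0.0937) and leaving out islands and their borders gave 0.787 (p = 0.0879), so the call did not hold without either.

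In most HOX genes the first exon carries the first part of the coding sequence, and first exons mostly lie in islands. First exons of the members held 11 positions in 24.7 kb, or 0.445 per kb, at 0.419 of expectation (0.209 to 0.749). First exons of all protein-coding genes with more than 1 exon were at 0.841, and the HOX ratio was 0.496 of that (0.248 to 0.889, exact binomial test, p = 0.0138). The genes were not matched for islands, whose interiors and borders across the genome were at 0.483 and 0.494 of expectation. The part of islands in this difference was not tested. Last exons, which carry the homeobox and the 3′ untranslated region, held 70 positions, or 1.27 per kb, at 0.977 of expectation (0.761 to 1.23), against 0.910 for last exons of all such genes (exact p = 0.535). HOXA7 had 7 positions in its last exon, HOXC12 6, and HOXA11 and HOXD12 5 each.

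The homeobox encodes the DNA-binding homeodomain, and each of the 38 lay whole within an exon. Over 180 bases in each of 38 genes they held 7 positions where 11.8 were expected (0.595, 0.239 to 1.23), a shortfall within counting error. The 7 positions fell in 6 genes: HOXA2 at base 149 of the homeobox, HOXA7 at bases 27 and 52, HOXA11 at base 12, HOXA13 at base 98, HOXB9 at base 134, and HOXA9 with 1 position. HOXB9 was the only one of them outside the HOXA cluster.

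The homeoboxes of HOXB9, HOXC9 and HOXD9, of paralog group 9, are shown because similar sequence holds a position in HOXB9 and none in the other two, and that of HOXA13 because its position lies 8 bp from the middle. HOXA9, also of group 9, holds a position in its homeobox too and is not part of the sequence comparison. All are on the coding strand of hg38, with the 11 bases centred on a position in capitals, at chr17:48622921-48623100 (HOXB9), chr12:54002465-54002644 (HOXC9), chr2:176123969-176124148 (HOXD9) and chr7:27198222-27198401 (HOXA13).
HOXB9: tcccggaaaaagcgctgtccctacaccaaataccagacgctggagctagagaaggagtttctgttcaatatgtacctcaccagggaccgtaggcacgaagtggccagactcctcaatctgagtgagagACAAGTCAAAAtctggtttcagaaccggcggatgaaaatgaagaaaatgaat
HOXC9: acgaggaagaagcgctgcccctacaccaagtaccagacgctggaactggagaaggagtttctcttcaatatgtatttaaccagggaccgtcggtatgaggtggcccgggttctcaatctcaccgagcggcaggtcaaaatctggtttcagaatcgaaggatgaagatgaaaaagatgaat
HOXD9: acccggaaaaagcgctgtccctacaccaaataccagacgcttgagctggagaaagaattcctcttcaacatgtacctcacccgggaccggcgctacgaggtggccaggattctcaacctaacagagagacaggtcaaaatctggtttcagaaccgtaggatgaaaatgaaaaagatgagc
HOXA13: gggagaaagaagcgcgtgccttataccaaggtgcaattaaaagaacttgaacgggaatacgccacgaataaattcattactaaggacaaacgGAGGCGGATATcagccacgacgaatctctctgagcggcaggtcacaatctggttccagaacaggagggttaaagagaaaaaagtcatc
Any 2 of these group 9 homeoboxes share between 148 and 152 of 180 bases. HOXB9 has its position at base 134. In HOXC9 the nearest position lies at -111 bp from the middle of the homeobox and in HOXD9 at 168 bp, so both homeoboxes are empty. HOXB9 and HOXD9 share the most bases, 152. The expectation was 0.311 positions for HOXB9, 0.330 for HOXC9 and 0.312 for HOXD9, so these counts are within counting error. A part of sequence in them was not tested.

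Neighbouring positions were closer together in the clusters than in the genome and the flanks, and a larger share of pairs lay 150 to 220 bp apart. The median distance between neighbours was 371 bp (342 to 392) over 1065 pairs, against 549 bp in the genome and 516 bp in the flanks. Distances from 150 to 220 bp, the range of adjacent nucleosomes, made up 21.1% of pairs (Wilson interval 18.8 to 23.7), against 14.2% in the genome and 15.6% in the flanks (14.0 to 17.4). By cluster this share was 21.3% in HOXA, 21.9% in HOXB, 21.5% in HOXC and 19.5% in HOXD. Gaps over 2 kb covered 24.8% of the clusters and 55.7% of the genome. A denser set of positions has shorter neighbour distances whatever their arrangement, and the part of density in these shares was not tested.

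Between 120 and 280 bp, the neighbour distances of the clusters had a median of 192 bp (189 to 196, 310 pairs), against 187 bp in the genome and 188 bp (186 to 191) in the flanks. HOXC had 199 bp (191 to 209), HOXB 193 bp (189 to 204), HOXD 190 bp (181 to 205) and HOXA 186 bp (173 to 193), and the intervals of the 4 clusters overlap. Pairs closer than 60 bp, which cannot be nucleosomes on the same DNA molecule, made up 9.39% (7.78 to 11.3) against 8.998% in the genome, with HOXD at 13.9% (9.99 to 18.9).

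**Figure D5:**
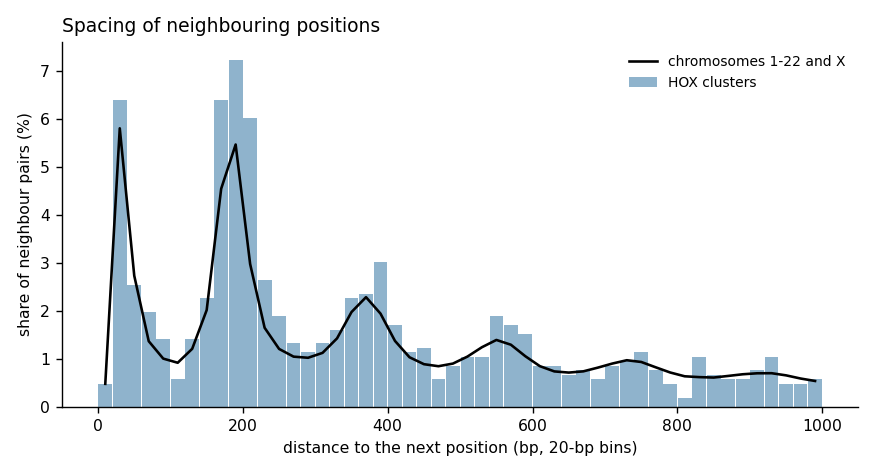
Share of neighbour pairs by distance to the next position in 20-bp bins up to 1000 bp, for the HOX clusters (bars, 1065 pairs in all) and chromosomes 1-22 and X (line). Both show a peak below 60 bp and one near 190 bp, with weaker ones at about multiples of the second, and the share from 150 to 220 bp is 21.1% in the clusters and 14.2% in the genome.

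Some stretches held rows of neighbours at the distances of adjacent nucleosomes. The longest row of neighbours 150 to 220 bp apart was 5 positions in HOXB at chr17:48546648-48547439, upstream of HOXB2, with distances of 197, 211, 215 and 168 bp. In HOXA a row of 4 lay in HOXA9 at chr7:27164266-27164821, with distances of 189, 173 and 193 bp. HOXC and HOXD each had a row of 4 outside their members, with mean distances of 204 and 203 bp. The longest empty stretch of each of the clusters was 5714 bp in HOXB at chr17:48692469-48698182, between HOXB9 and HOXB13 and only 38.1% GC, the 4670 bp over HOXD8 in HOXD, 3961 bp inside HOXA3 in HOXA and 3657 bp in HOXC.

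Long noncoding RNA genes start at 30 places in the clusters, and 26 of these were empty from -200 to +50 bp (86.7%, against 78.6% of 18756 such genes). The starts with a position were those of HOTTIP, which lies beside HOXA13 (nearest at -72 bp), HOXB-AS3 (2 positions, nearest at -56 bp), HAGLROS in HOXD (nearest at 5 bp) and ENSG00000260597 in HOXC (nearest at 13 bp). HOTAIR, the antisense RNA of HOXC, had its nearest position at 601 bp and HOTAIRM1 its own at -334 bp.

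CTCF, a protein that bounds chromatin domains and is known to bind in HOX clusters, was looked for through its consensus motif on both strands. There were 3 matches, or 4.44 per Mb against 3.78 per Mb in the genome. They are shown as the 30 bases around each match, on the strand of the match and with the match in capitals, because their neighbourhoods differ.
HOXA motif 1: aaacggcggCCAGCAGATGGCagtgtggct
HOXB motif 1: ccctcggatCCAGCAGAGGGCtgtggtggc
HOXB motif 2: ccggagcaaCCACCAGATGGCcctgtatgt
The HOXA match, at chr7:27161138-27161149 on the minus strand, lies between HOXA7 and HOXA9 at an island border, with the nearest position at -145 bp from it. The match in an exon of HOXB3, at chr17:48551174-48551185 on the minus strand, had its nearest position 1606 bp away. The last, at chr17:48663322-48663333 on the plus strand between HOXB9 and HOXB13, had a position 50 bp away. Across the genome 40.4% of 11012 matches had a position 100 to 200 bp away and 9.04% had 1 within 50 bp. CTCF binding was not measured, and 3 matches allow no comparison.

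Other genes of the HOX system were described by the same count within 2 kb of the start, and none of them was called in the test across all genes. EVX2 and EVX1, homeobox genes beside HOXD and HOXA, held 6 positions (6.10 expected) and 10 (6.23 expected). The 6 ParaHox genes, the evolutionary sister group, had a median observed over expected ratio of 0.558. The 9 TALE cofactors, which bind DNA with HOX proteins, had a median of 0.805, with MEIS2 at 0 positions (5.76 expected). The 16 Polycomb genes had a median of 0.516, and all 16 were empty from -200 to +50 bp, 15 of them starting in an island, where 91.7% of all genes are empty. The 7 trithorax genes had a median of 0.390, with KMT2A at 5 positions (5.33 expected). MEIS2 and KMT2A are named after their values were seen. These medians stand beside 0.605 for all genes and 1.07 for the HOX members.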

How the data were processed

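The authors deposited 1 list, which names no batch and whose rows give a chromosome and a point position on hg38, per the file headers. A position is a call and carries no count, signal or score. Bowtie2 and hg38 are named in the submitters' processing notes. The caller, the fragment-length filter, the threshold and whether batches were pooled are not given in the sources used here. The name of the list carries 120 and 180, which no source explains and which may be limits on fragment length. The number of reads behind a position is unknown.

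From 2634347 rows, 4 repeated rows were removed and chromosomes 1-22 and X were kept. Sequence came from the hg38 reference and genes from GENCODE 44, with 1 start per gene. The GC expectation used 2% bins of the 200 bp around each base. CpG islands came from a running score of 17 per CpG and -1 per other base, kept where longer than 500 bp, 55% GC or more, and above 0.65 in CpG observed over expected. Tests were exact binomial and Poisson tests with Benjamini-Hochberg adjustment at 0.05, tested on simulated data. The comparisons with the genome and flanks by island class, of exons with all genes, and the 120 to 280 bp range were chosen after the values were seen. Homeoboxes were found by translating the coding sequence. Software was scipy 1.17.1, numpy 2.4.6, pandas 2.3.3, numba 0.67.0 and matplotlib 3.10.9 under Python 3.11.15.

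The members and gene lists were chosen with earlier results of these data known. Members given in full were those with a position from -200 to +50 bp, the 2 with the most and the 2 with the fewest positions within 2 kb in each cluster, those with the nearest position over 1 kb away, those called, and every CTCF match. Of 39 annotated HOX genes, 1 is not reported here. Alternatives were the offset, merging of close positions, padding, bounds and flank length, windows and start sites, and leaving out each of the clusters.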

Additional observations from a re-analysis of the deposited data

How the results depend on the processing

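Over 20 results, 118 of 150 alternative values led to the same direction and the same call. Some of these could not differ. Ending HOXB at HOXB9 leaves the densities of the other clusters as they were, and the bounds with every annotated HOX symbol change only HOXA. No paired analysis was possible because the list has 1 group and does not tell the batches apart, and for the same reason no batch could be left out. For the flanks, the GC expectation ended the call of HOXA (1.01), HOXC (1.09) and HOXD (1.20). HOXC was also lost with positions closer than 100 bp merged (1.17) and with 100 kb flanks (1.08). The spread of 10-kb pieces (a variance 2.02 times that of counting, chosen after seeing the data) left HOXC at 1.20 without a call, and with the GC expectation also HOXA (1.01), HOXB (1.25), HOXC (1.09) and HOXD (1.20). Between clusters, the GC expectation brought calls for HOXA against HOXB (1.28) and HOXB against HOXD (0.737) and turned HOXA against HOXC (1.07) and HOXC against HOXD (0.882), 2 pairs without a call, also with the spread of pieces. Merging turned HOXA against HOXD to 1.04, and 0 kb padding brought calls for HOXB against HOXC (0.771) and HOXD (0.788). The shelf excess was lost with merging (1.17), with HOXB ended at HOXB9 (1.14), without HOXB (1.14), without HOXC (1.13) and with the spread of pieces (1.21, or 1.19 with the GC expectation); the shore excess was lost without HOXB (1.16). The exon to intron difference was lost without first exons (0.795) and without islands and borders (0.787, or 0.880 with the GC expectation), chosen after seeing the data. Counting bases called 1 member, HOXA13, for more positions (1.81% of all genes); a window of 1 kb put 13 members above expectation (27.4% of all genes); merging raised the median spacing to 435 bp, since it removes short distances. For the other changes the cause was not tested. For exons, 0 kb padding has no part in the fit and the bounds with every annotated HOX symbol were not run. The low number of positions per gene limits every gene-level statement, since a member's expectation was at most 6.73 positions.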

Other observations

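The clusters also hold 8 microRNA hairpins, none with a position on the hairpin itself. Hairpins are short and the clusters together held 1.58 positions per kb, so few positions would be expected on them. No expectation or genome-wide share was computed for hairpins. Measured from the middle of the hairpin along its strand, the nearest position lay at 174 bp from MIR10B, -150 bp from MIR196A1, -102 bp from MIR3185, -326 bp from MIR196B, -322 bp from MIR196A2, 566 bp from MIR615, -693 bp from MIR10A and 1233 bp from MIR7704. Within 500 bp MIR196A1 had 3 positions, MIR10B and MIR196A2 had 2 each, and MIR196B and MIR3185 had 1 each. The miR-10 and miR-196 hairpins are the conserved microRNAs of the clusters, and their mature products are known to target HOX transcripts.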
